A study of Mus musculus with 4 samples.

Results

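The collagen genes other than type IV were measured by RNA sequencing in 4 untreated mice, from the free wall of the left ventricle. They were taken as every row of the deposited count table whose symbol has the form of a collagen chain gene (Col, a type number, a and a chain number), leaving out the type IV chains, which gave 38 of 38355 genes. Of these, 25 had 10 or more raw counts in at least 2 of the 4 libraries and are described here as the members. The other 13 stayed below that limit and were not tested.

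Collagens are extracellular proteins built of 3 chains wound into a triple helix of Gly-X-Y repeats. Fibrillar types I, III and V form the tensile fibres of the heart's interstitium and are made mainly by fibroblasts, type VI forms beaded filaments around cells, and fibril-associated types decorate fibre surfaces. Types XV and XVIII belong to the zone between basement membranes and the interstitium. Type IV, the network of the basement membrane itself, serves below only as a comparison.

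The study asked whether the voltage indicator VSFP2.3 is toxic to the heart. It is a fluorescent protein that reports membrane potential and was aimed at cardiomyocytes, per the title of the series, and the sources used here do not name the promoter that drives it. The 2 wild-type mice (WT 1 and WT 2) and the 2 mice with the VSFP2.3 transgene (TG 1 and TG 2) gave 1 library each. WT 1 and TG 1 were males of 35 weeks and WT 2 and TG 2 were females of 19 weeks, so sex and age cannot be told apart. All 4 had the same parents and no treatment, and the sources used here give no strain. Reads of the transgene itself were not analysed here. In bulk tissue, fewer cells of a type and less RNA per cell cannot be told apart.

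The libraries held 14158440 to 16762713 counted reads, and the members took 17417 to 33263 of them together with the 13 lesser collagens. Levels are in CPM, a gene's counts scaled to a common library total, adjusted by trimmed means. A count of 0 leaves room for 3 counts, which is 0.182 to 0.213 CPM, for counting error only. The ventricular myosin light chain Myl2 was at 7672 to 7948 CPM. WT 2 stood apart from the other libraries: the non-coding gene Yam1 had 685444 counts there against 2094 to 7376 elsewhere, and the atrial light chain Myl4 was at 75.6 CPM against 0.711 to 1.16. Results are therefore also given without WT 2, and its part in them beyond that was not tested.

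Promoter windows are shown for members whose levels bracket the results below: Col3a1, the most abundant, Col6a2 and Col6a3, whose levels ran in parallel, and Col8a1, which varied least. Each is the 250 bases before the RefSeq transcription start in GRCm38.p6, written 5′ to 3′ on the gene's strand. Capitals mark matches on either strand to the CCAAT box (CCAAT), the GC box (GGGCGG) or the TATA box (TATAAA), which do not overlap each other here.
Col3a1 (chr1:45311288-45311537, plus strand): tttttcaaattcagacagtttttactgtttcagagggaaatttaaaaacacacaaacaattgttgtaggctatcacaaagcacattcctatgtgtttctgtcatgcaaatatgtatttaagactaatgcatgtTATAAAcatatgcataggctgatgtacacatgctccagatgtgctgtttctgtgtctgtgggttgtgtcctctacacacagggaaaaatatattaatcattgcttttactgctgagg
Col6a2 (chr10:76623631-76623880, minus strand): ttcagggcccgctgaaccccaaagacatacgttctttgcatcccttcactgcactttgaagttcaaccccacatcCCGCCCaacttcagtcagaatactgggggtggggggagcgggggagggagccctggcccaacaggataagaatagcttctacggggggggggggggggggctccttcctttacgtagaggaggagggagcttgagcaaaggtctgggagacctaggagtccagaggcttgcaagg
Col6a3 (chr1:90843972-90844221, minus strand): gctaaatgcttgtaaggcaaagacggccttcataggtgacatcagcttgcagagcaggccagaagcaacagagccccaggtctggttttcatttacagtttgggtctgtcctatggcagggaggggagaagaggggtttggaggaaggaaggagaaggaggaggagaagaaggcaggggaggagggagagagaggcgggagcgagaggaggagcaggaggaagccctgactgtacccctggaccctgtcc
Col8a1 (chr16:57754738-57754987, minus strand): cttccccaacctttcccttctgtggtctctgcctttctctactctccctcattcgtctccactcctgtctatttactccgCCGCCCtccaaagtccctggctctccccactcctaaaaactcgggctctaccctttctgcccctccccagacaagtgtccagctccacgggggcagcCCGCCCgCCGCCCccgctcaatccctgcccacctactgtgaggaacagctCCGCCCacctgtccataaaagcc
The table held 23 windows for 21 members, with 2 each for Col6a2 and Col18a1. Of these 23 windows, 5 had a CCAAT match, against 33.8% of all 32851 windows, 14 had a GC box match, against 32.7%, and 4 had a TATA match, against 12.4%. The Col6a3 window held none of the 3 motifs, that of Col3a1 held 1 TATA match, the Col6a2 window shown held 1 GC box match, and that of Col8a1 held 4 GC box matches. A second RefSeq window of Col6a2, chr10:76623405-76623654, which overlaps the one shown, held 3 GC box matches. These are matches of letters only.

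Col3a1, the chain of type III, was the most abundant member per length, with a mean of 44.8 CPM per kb of exonic length over the 4 libraries. It was at 33.3 CPM per kb in WT 1, 67.6 in WT 2, 34.4 in TG 1 and 44.1 in TG 2, with WT 2 the highest. Col6a1 (mean 26.7 CPM per kb) and Col15a1 (24.4) came next, and their ranges over the libraries, 17.6 to 39.2 and 13.1 to 39.0, overlapped each other and the range of Col3a1. Col1a2 (13.6), Col6a2 (13.1) and Col1a1 (12.5) formed the following group and had overlapping ranges. Col5a1, Col14a1, Col6a3, Col8a1, Col5a2 and Col5a3 had means of 5.54 to 9.34 CPM per kb. Col18a1, Col16a1 and Col6a6 had means of 1.64 to 2.26, and the remaining 10 had 0.119 to 0.676.

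**Figure D1:**
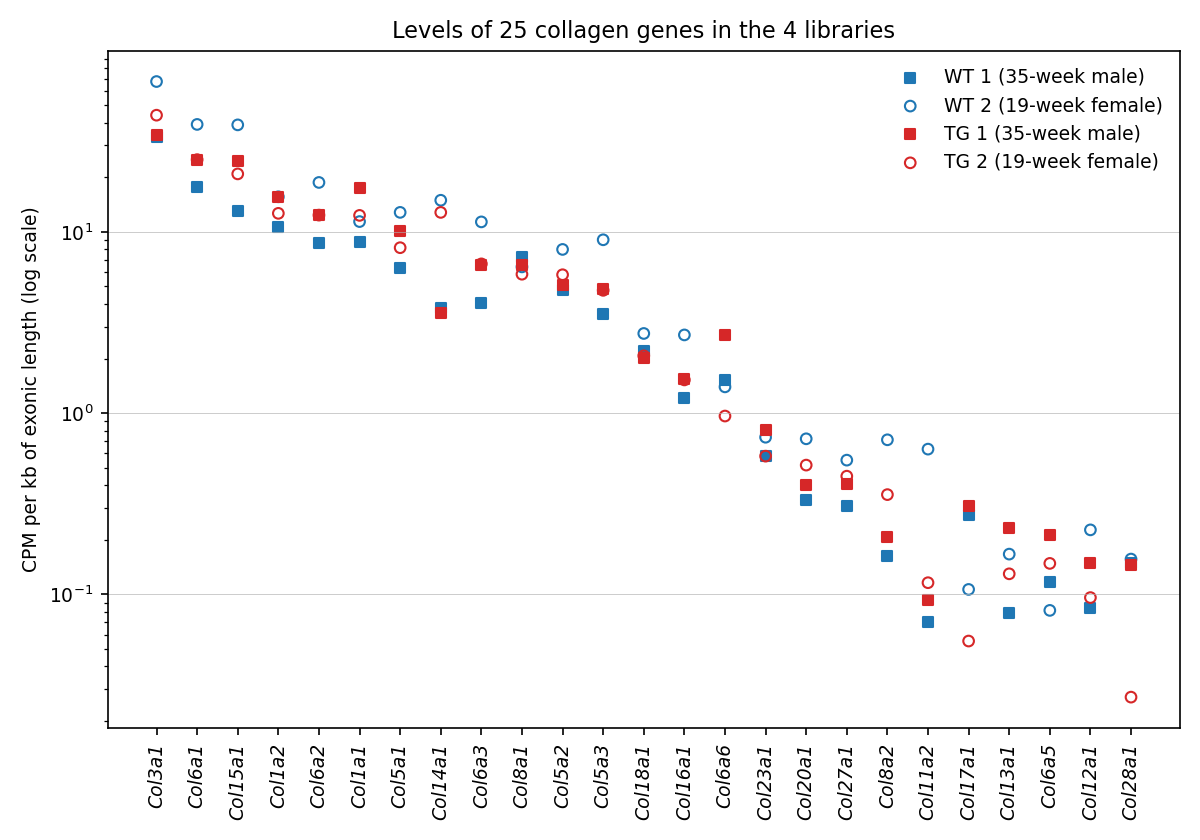
Level of each of the 25 collagen genes (CPM per kb of exonic length, log axis) in each library, with genes ordered by their mean, squares for 35-week males, circles for 19-week females, blue for WT and red for TG. WT 2 is the highest point for 18 of the 25 genes, and WT 1 is the lowest for 17.

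Several chain genes sit side by side in the genome. In the GENCODE vM21 annotation of GRCm38, Col3a1 (ENSMUSG00000026043, chromosome 1, 45311538 to 45349706) lies next to Col5a2 (ENSMUSG00000026042, chromosome 1, 45374321 to 45503282) on the opposite strand. Col6a2 (ENSMUSG00000020241, chromosome 10, 76595762 to 76623630) and Col6a1 (ENSMUSG00000001119, chromosome 10, 76708792 to 76726168) lie on the same strand. Col6a6 and Col6a5 lie together on chromosome 9. A single other annotated gene covered at most 1.54% of the exonic length of any member on the same strand (Col20a1) and at most 1.33% on the opposite strand (Col5a1). The sources used here do not give the strand setting of the counting.

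The undetected or barely detected collagens included the main chains of cartilage. Col2a1, Col9a1 and Col10a1, chains of cartilage, had 0 counts in all 4 libraries. Col9a2, Col9a3 and Col11a1, also of cartilage, reached at most 4, 8 and 5 counts, and Col7a1, the anchoring fibril collagen of skin, at most 6. Col25a1 had 11 counts in WT 2 and 6 to 8 in the others. Col6a4, Col19a1, Col22a1, Col24a1 and Col26a1 reached at most 1, 6, 7, 2 and 3 counts.

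Summed over the members, collagen transcripts were at 1057 CPM in WT 1, 2125 in WT 2, 1407 in TG 1 and 1441 in TG 2. The TG libraries thus lay between the WT libraries, and WT 2 held the highest sum. WT 2 was the highest library for 18 of the 25 members, against 27.5% of all tested genes, and WT 1 was the lowest for 17. The 9 fibroblast markers, none a collagen, summed to 3013 CPM in WT 1, 3049 in WT 2, 3222 in TG 1 and 3384 in TG 2, a sum led by Gsn and Dcn. Taken singly, 5 of the 9 were highest in WT 2 (Lum, Tcf21, Mfap5, Islr and Pi16), and Lum and Islr were also lowest in WT 1, as most collagens were. The part of fibroblasts in the collagen values was not tested.

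Between TG and WT hearts, no collagen passed the test, and the sign of most values turned when WT 2 was left out. In edgeR's quasi-likelihood test, adjusted by Benjamini-Hochberg over 14189 genes, 0 of the 25 members were called, as were 0% of all tested genes, and DESeq2 and limma-voom also called 0 members. At an unadjusted p under 0.05 there were 0 members, against 99 of all tested genes. The log2 fold change was negative for 19 members and positive for 6, with a median of -0.19 against -0.01 over all tested genes. Without WT 2, which leaves the male WT 1 as the only WT library, it was positive for 21, with a median of 0.47. Without WT 1, which leaves the female WT 2, it was positive for 5, with a median of -0.59. Both TG libraries lay above both WT libraries for 2 members, Col1a1 and Col6a5, against 10.3% of tested genes, and below them for 2, Col18a1 and Col28a1, against 10.7%.

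Among the fibrillar collagens, Col1a1 encodes the alpha 1 chain of type I, the main load-bearing fibre of the heart. It was at 57.6 CPM in WT 1, 74.8 in WT 2, 114 in TG 1 and 81.0 in TG 2. Both TG libraries were the higher ones, at 97.5 ± 23.4 CPM against 66.2 ± 12.2 in WT (SD, n = 2), and the log2 fold change (TG over WT, ± SE) was 0.56 ± 0.24 with an adjusted p of 1.00 by edgeR. It was the member of smallest p with a positive value (unadjusted p = 0.0681 by edgeR), and its value stayed positive, from 0.29 to 0.78, whichever library was left out. Col1a2, its partner chain, was at 132 and 194 CPM in the WT libraries and 193 and 157 in the TG libraries, with a log2 fold change of 0.10 ± 0.24, and its groups overlapped.

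Col3a1 was at 327 and 663 CPM in the WT libraries and 338 and 433 in the TG libraries, a log2 fold change of -0.36 ± 0.37. Without WT 2 it was 0.24. Type V chains nucleate and limit the width of type I fibres. Col5a1 was at 53.4 and 109 CPM in the WT libraries and 85.6 and 69.5 in the TG libraries (-0.06 ± 0.36, 0.54 without WT 2), and Col5a2 at 45.8 and 76.8 in WT and 48.8 and 55.7 in TG (-0.23 ± 0.28, 0.19 without WT 2). For all 3 genes the TG values lay inside the WT range. Col5a3, a further type V chain, was at 24.0 and 61.6 CPM in the WT libraries and 32.8 and 32.4 in the TG libraries. Col11a2, a minor fibrillar chain known from cartilage, was the member of smallest p with a negative value, at -1.73 ± 1.05 (adjusted p of 1.00 by edgeR). It had 8, 68, 9 and 12 counts in WT 1, WT 2, TG 1 and TG 2, and without WT 2 the value was 0.56. Col27a1 was at 4.01 and 7.16 CPM in the WT libraries and 5.26 and 5.84 in the TG libraries.

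Of the 5 beaded-filament chains, Col6a1, Col6a2 and Col6a3 ran in parallel across the libraries and Col6a5 and Col6a6 did not. Col6a1 was at 77.3, 172, 109 and 110 CPM in WT 1, WT 2, TG 1 and TG 2, Col6a2 at 72.1, 156, 104 and 103, and Col6a3 at 48.7, 136, 78.6 and 79.7. In each case WT 1 was lowest, WT 2 was highest and the TG libraries lay close together between them. Their log2 fold changes were -0.19 ± 0.39, -0.14 ± 0.38 and -0.22 ± 0.48, and 0.50, 0.52 and 0.70 without WT 2. Col6a6 was at 14.0 and 12.8 CPM in the WT libraries and 24.6 and 8.83 in the TG libraries, so its TG libraries were the highest and the lowest. Col6a5 was at 1.09 and 0.768 CPM in the WT libraries and 1.99 and 1.39 in the TG libraries, lowest in WT 2 and highest in TG 1, from 12 to 28 counts.

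In the other classes most fitted values were negative and none passed the test: 2 of 2 short-chain network, 4 of 4 fibril-associated and 2 of 2 multiplexin genes had negative log2 fold changes, as did Col28a1 and 1 of 3 transmembrane genes. Over all tested genes 52.5% were negative. Of these collagens, Col8a1, Col14a1, Col18a1 and Col28a1 were lower in TG in both pairs, and the others only in the female pair. Col8a1, a short-chain network collagen of vessel walls and valves, was at 56.6 and 50.2 CPM in the WT libraries and 51.7 and 45.8 in the TG libraries (-0.13 ± 0.15), the narrowest range of the abundant members. Col8a2 was at 0.730 and 3.20 CPM in the WT libraries and 0.925 and 1.59 in the TG libraries. Col14a1, a fibril-associated collagen that binds fibre surfaces, was at 26.7 and 105 CPM in the WT libraries and 25.2 and 89.9 in the TG libraries (-0.19 ± 0.84). Its spread within each genotype was far wider than the difference between genotypes. Without WT 2, which leaves a male as the only WT library, the value was 1.11. Of the other fibril-associated chains, Col16a1 was at 8.21 and 18.2 CPM in the WT libraries and 10.4 and 10.3 in the TG libraries, Col12a1 at 1.28 and 3.45 in WT and 2.28 and 1.46 in TG, and Col20a1 at 1.70 and 3.71 in WT and 2.06 and 2.66 in TG.

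The multiplexins carry heparan or chondroitin sulphate chains and release anti-angiogenic fragments. Col15a1 was at 83.1 and 247 CPM in the WT libraries and 157 and 133 in the TG libraries (-0.19 ± 0.52, 0.80 without WT 2). Col18a1 was at 15.4 and 19.3 CPM in the WT libraries and 14.2 and 14.5 in the TG libraries (-0.27 ± 0.18), both TG values being lower, and -0.10 without WT 2. Of the transmembrane collagens, Col23a1 was at 3.32 to 4.62 CPM, Col13a1 had 6 to 15 counts and Col17a1 had 5 to 27. Col28a1 had 12, 12 and 10 counts in WT 1, WT 2 and TG 1 and 2 in TG 2.

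**Figure D2:**
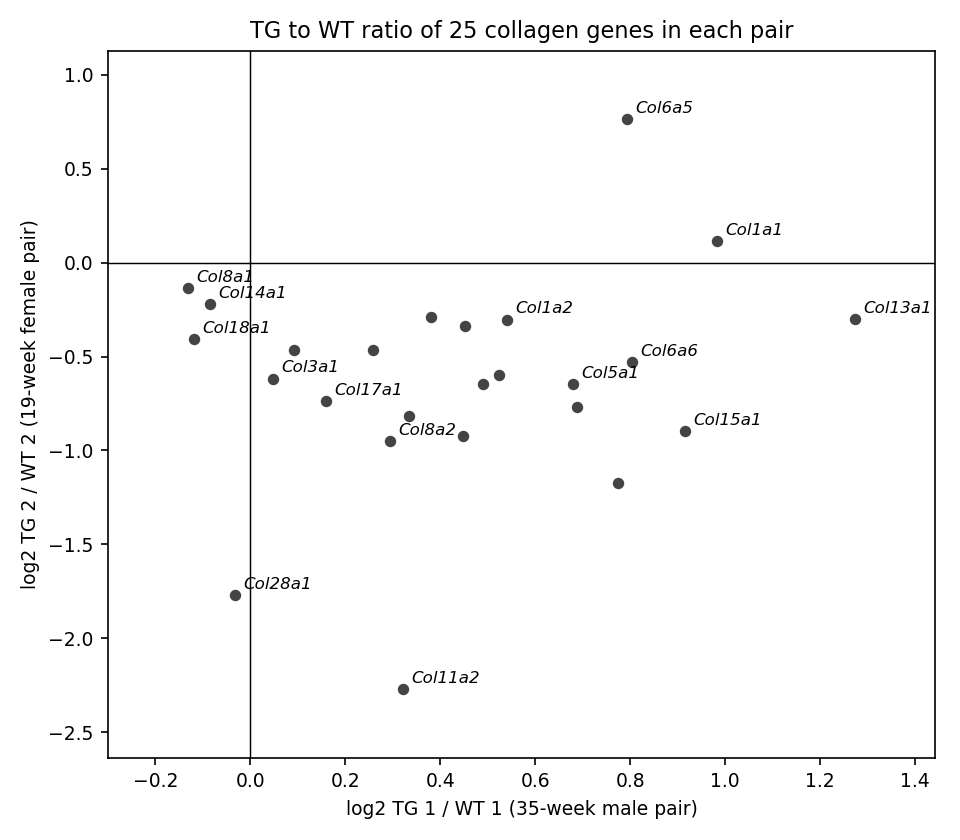
Log2 ratio of TG to WT (CPM with a prior count of 2) of each collagen gene in the 35-week male pair (x axis) and in the 19-week female pair (y axis). The 19 points in the lower right quadrant were higher in TG in the males and lower in TG in the females, and only Col1a1 and Col6a5 were higher in TG in both pairs.

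The make-up of type I and of the fibre as a whole was compared within each library, where scaling between libraries plays no part. Col1a1 made up 30.3% (95% Wilson interval 28.7 to 32.0) of the counts of Col1a1 and Col1a2 in WT 1 and 27.8% (26.5 to 29.2) in WT 2. In TG 1 it was 37.2% (35.8 to 38.6) and in TG 2 34.0% (32.4 to 35.5). The 2 TG intervals lay above both WT intervals, and these intervals cover counting error only. An exact permutation test of 2 mice against 2 cannot give a two-sided p below 0.333. The share of Col1a1 in the counts of Col1a1 and Col3a1 was 15.0% (14.1 to 15.9) in WT 1, 10.1% (9.60 to 10.7) in WT 2, 25.2% (24.2 to 26.3) in TG 1 and 15.8% (15.0 to 16.6) in TG 2. Here TG 2 and WT 1 had overlapping intervals and TG 1 stood highest. These comparisons of shares were chosen after the levels were seen.

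Type VI chains kept closer proportions. Col6a1 made up 37.0 to 39.0% of the counts of Col6a1, Col6a2 and Col6a3 and Col6a2 33.7 to 36.4%. Col6a3 made up 24.6% (23.1 to 26.1) in WT 1, 29.3% (28.3 to 30.4) in WT 2, 27.0% (25.7 to 28.4) in TG 1 and 27.2% (25.9 to 28.6) in TG 2. The WT libraries were thus the extremes and the TG libraries were alike. Within type V, Col5a1 made up 51.2% (49.2 to 53.2) of Col5a1, Col5a2 and Col5a3 counts in TG 1 and 43.3 to 44.1% in the other libraries.

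**Figure D3:**
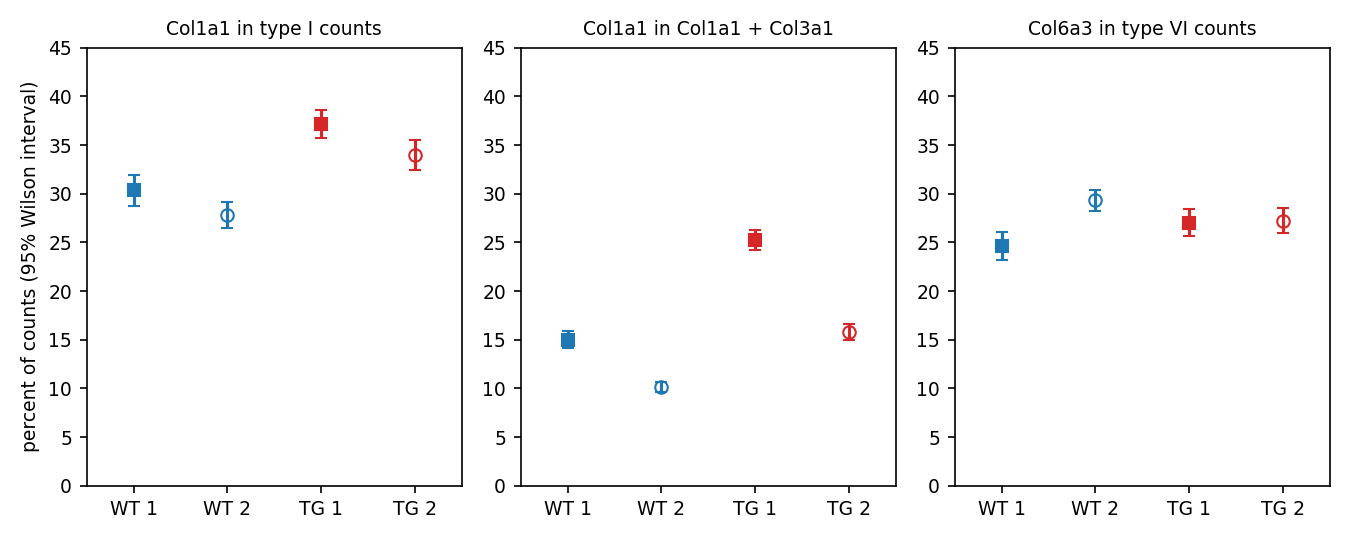
Share of counts within a library (percent, with 95% Wilson intervals as bars) of Col1a1 in type I, of Col1a1 in Col1a1 plus Col3a1, and of Col6a3 in type VI, in each library. Both TG points lie above both WT points in the type I panel, at 37.2 and 34.0% against 30.3 and 27.8%, and the Col6a3 points range from 24.6 to 29.3%.

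Between the 35-week males and the 19-week females, the collagen with the smallest p was Col14a1. It had 439 counts in WT 1 and 354 in TG 1, the males, and 1639 in WT 2 and 1353 in TG 2, the females. In CPM the males were at 25.9 ± 1.07 and the females at 97.3 ± 10.6 (SD, n = 2). The groups were far apart and the 2 genotypes gave like values, with log2 ratios of male to female of -1.97 in WT and -1.83 in TG. The fitted log2 fold change was -1.91 ± 0.14, which is 3.75-fold lower in males.

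Its unadjusted p of 6.72e-05 by edgeR ranked 6 among 14189 genes, after the Y-linked genes Ddx3y, Eif2s3y, Uty and Kdm5d and after Xist. Its adjusted p of 0.159 by edgeR did not pass the threshold, so Col14a1 is not called by that test. DESeq2 gave an adjusted p of 5.95e-18 and limma-voom 0.147, and edgeR without a filter on low counts gave 0.0353. With genotype as a block, edgeR gave an adjusted p of 0.9999, so the call depended on the setting. Its value stayed between -2.01 and -1.80 whichever library was left out (-1.80 without WT 2). Col14a1 (ENSMUSG00000022371) lies on chromosome 15 from 55307750 to 55520803.

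Over all members, edgeR with Benjamini-Hochberg adjustment called 0 of 25 between males and females, against 0.0282% of all tested genes. DESeq2 called 1, Col14a1, and limma-voom 0. At an unadjusted p under 0.05 by edgeR there were 4 members, Col14a1, Col3a1, Col8a2 and Col17a1, against 3.62% of tested genes. Values were lower in males for 17 and higher for 8, with a median log2 fold change of -0.49 against 0.01 over all tested genes and of -0.15 without WT 2. Both males lay below both females for 9 members, against 15.9% of tested genes, and above them for 3, against 15.5%. The 9 were Col3a1, Col6a1, Col14a1, Col6a3, Col5a2, Col20a1, Col27a1, Col8a2 and Col11a2.

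Much of this rested on the WT pair. The male was below the female for 21 of 25 members in WT, against 49.2% of tested genes, and for 10 of 25 in TG, against 50.6%. The median log2 ratio of male to female was -1.02 in WT and 0.02 in TG. Col3a1 was lower in males by the fit at -0.72 ± 0.23 (adjusted p of 0.999 by edgeR), made up of -1.02 in WT and -0.36 in TG, and -0.38 without WT 2. Col5a2, its genomic neighbour, was at -0.49 ± 0.19 (-0.24 without WT 2). Col6a1, Col6a2 and Col6a3 were at -0.60 ± 0.29, -0.56 ± 0.28 and -0.76 ± 0.36, with ratios of -0.01, 0.01 and -0.02 in TG and fitted values of -0.24, -0.23 and -0.33 without WT 2. Col15a1 was at -0.66 ± 0.43, with opposite signs in WT (-1.57) and TG (0.24), and at -0.15 without WT 2.

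The type I chains did not follow Col14a1 or Col3a1. Col1a1 was at 0.14 ± 0.34 and Col1a2 at -0.11 ± 0.23, and in both the male was lower in WT and higher in TG. Col5a1 was at -0.36 ± 0.33, Col18a1 at -0.19 ± 0.19 and Col8a1 at 0.17 ± 0.13. Without WT 2 the values of Col1a2 and Col18a1 turned sign, to 0.04 and 0.03. Col8a1 was higher in males by a like amount in both genotypes (0.17 and 0.18). Col17a1, a transmembrane collagen of epithelial hemidesmosomes, was the member of smallest p with higher values in males, at 1.82 ± 0.48 (adjusted p of 0.999 by edgeR). It had 27 and 26 counts in the males and 10 and 5 in the females. Each of the values in this paragraph and the one before had an adjusted p of 0.999 by edgeR.

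**Figure D4:**
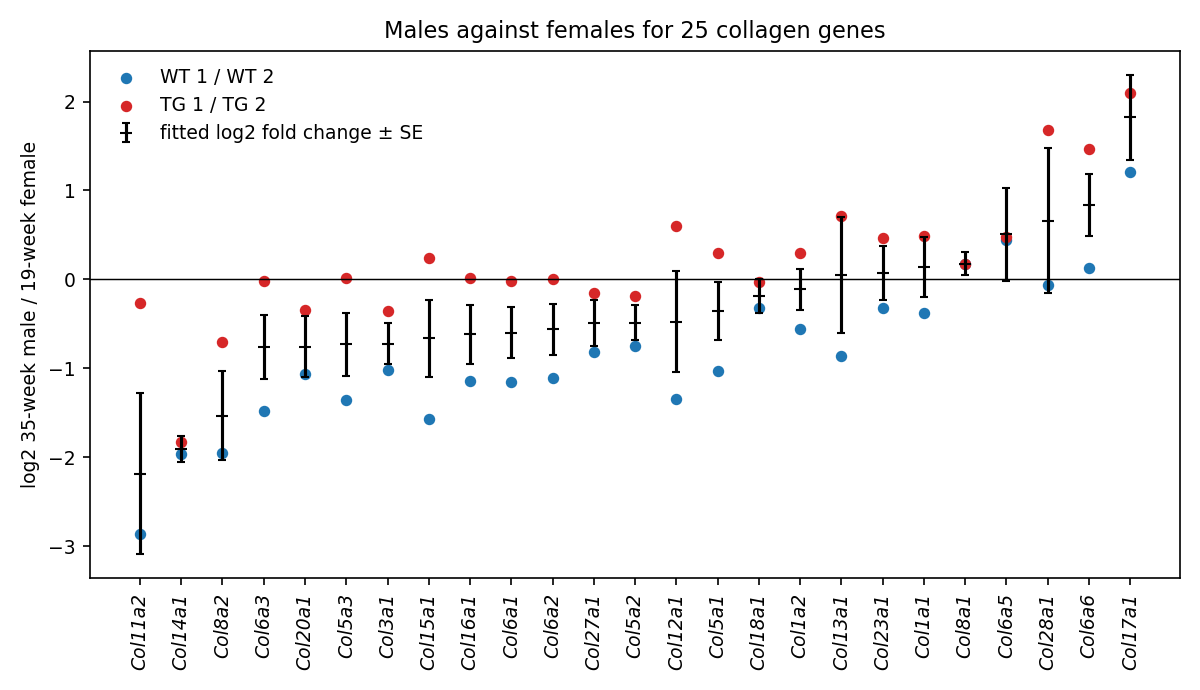
Log2 ratio of the 35-week male to the 19-week female for each collagen gene, in WT (blue), in TG (red) and as fitted by edgeR with its SE (black), with genes ordered by the fitted value. Col14a1 has both genotypes near -1.9, whereas for most other genes with negative fitted values the TG point lies near 0 and the WT point near or below -1.

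Some fibroblast markers ran beside Col14a1. Mfap5, a microfibril protein, was at 12.5 and 11.7 CPM in the males and 27.6 and 22.0 in the females, and Pi16, a marker of adventitial fibroblasts, at 29.4 and 28.7 in the males and 66.8 and 40.2 in the females. Both had lower values in both males (log2 fold changes of -1.04 ± 0.17 and -0.88 ± 0.27, adjusted p of 0.999 by edgeR). The general fibroblast gene Pdgfra was at 105 and 120 CPM in the males and 98.3 and 125 in the females. Dcn went the other way, at 939 and 874 CPM in the males and 651 and 786 in the females (0.34 ± 0.15). Of 9 fibroblast markers 7 had lower values in males, with a median of -0.21 against 0.01 over all tested genes, and 0 were called. The part of these cells in the difference of Col14a1 was not tested.

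The ratio of TG to WT differed in direction between the male and the female pair for most collagens. In the males 21 of 25 members were higher in TG, against 49.5% of tested genes, with a median log2 ratio of 0.45. In the females 23 of 25 were lower in TG, against 51.3%, with a median of -0.60. Together, 19 were higher in the male pair and lower in the female pair, against 32.8% of tested genes, and 0 showed the reverse, against 31.9%. Col1a1 and Col6a5 were higher in TG in both pairs, and Col8a1, Col14a1, Col18a1 and Col28a1 were lower in both.

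The difference between the pairs was tested with an interaction of genotype and pair as the only term, since 4 libraries leave no residual degrees of freedom beside both main terms. Its coefficient is 2 times the log2 difference between the libraries WT 2 and TG 1 and the libraries WT 1 and TG 2, and equals the difference between the pairs only where genotype and pair add none of their own. By edgeR with Benjamini-Hochberg adjustment 0 of 25 members were called, against 2.72% of all tested genes. DESeq2 called 2, Col5a1 and Col15a1, and limma-voom 0. At an unadjusted p under 0.05 there were 4 members by edgeR, Col5a1, Col1a2, Col12a1 and Col15a1, against 16.2% of tested genes, so the share of small p-values lay near the background. The coefficient was positive for 24 of 25 members, against 50.9% of tested genes, with a median of 1.14 against 0.01.

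Without WT 2, where the coefficient sets TG 1 against WT 1 and TG 2, it was positive for 19 members, with a median of 0.48. WT 2 and TG 1 both lay above WT 1 and TG 2 for 9 members, against 22.9% of tested genes, and below them for 0, against 24.6%. The sign turned for 7 members when WT 2 was left out.

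By class, Col5a1 had the smallest p, at 1.33 ± 0.36 (adjusted p of 0.149 by edgeR), and 0.96 without WT 2. Its levels of 109 and 85.6 CPM in WT 2 and TG 1 lay above 53.4 and 69.5 in WT 1 and TG 2. Col15a1 was at 1.81 ± 0.59 (adjusted p of 0.212) and Col1a2 at 0.83 ± 0.25 (adjusted p of 0.191), by the same test, and neither overlapped between these pairs of libraries. Col1a1 was at 0.89 ± 0.49, Col3a1 at 0.80 ± 0.64 and Col5a2 at 0.62 ± 0.46. Col3a1 and Col5a2 turned sign without WT 2, to -0.34 and -0.11. Col6a1, Col6a2 and Col6a3 were at 1.17 ± 0.52, 1.14 ± 0.50 and 1.48 ± 0.65, and at 0.43, 0.48 and 0.58 without WT 2. Col14a1 (0.32 ± 1.51) and Col18a1 (0.33 ± 0.38) lay within their errors and turned to -2.42 and -0.15 without WT 2, and Col8a1, at -0.01 ± 0.27, was the only member with a negative value, which was 0.03 without WT 2. The adjusted p-values of the members ran from 0.149 to 0.990 by edgeR.

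Leukocyte genes ran the other way across the same libraries. The 7 listed leukocyte markers summed to 260 CPM in WT 1 and 205 in TG 2 against 83.5 in WT 2 and 87.8 in TG 1. Of the 6 tested, 6 had negative coefficients, against 49.1% of all tested genes, and 4 were called by edgeR, against 2.72%. Cardiomyocyte markers summed to 53776 CPM in WT 1, 63748 in WT 2, 71950 in TG 1 and 56541 in TG 2, highest in the same 2 libraries as 9 of the collagens. That sum was led by Myh6, at 18365, 27275, 32115 and 21134 CPM in the same order. Taken singly, 4 of the 7 markers were higher in both WT 2 and TG 1 than in the other libraries, against 22.9% of tested genes. Lower in both were 0, against 24.6%. Actc1 and Tnnt2 were lowest in WT 2. The part of leukocytes and cardiomyocytes in the collagen values was not tested.

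The type IV collagens, which form the basement membrane, showed the same order of libraries in their sum. They summed to 970 CPM in WT 1, 1583 in WT 2, 1141 in TG 1 and 1163 in TG 2. Taken singly, all 6 were highest in WT 2, against 27.5% of all tested genes, but Col4a3, Col4a4 and Col4a5 were lowest in TG 2 and not in WT 1. All 6 of 6 had a higher value in TG in the male pair and a lower one in the female pair, against 32.8% of all tested genes. By edgeR 0 were called in any of the 3 comparisons at an adjusted p under 0.05. At an unadjusted p under 0.05 by edgeR there were 0, 0 and 2, against 0.698%, 3.62% and 16.2% of tested genes. Col4a1 was at 539, 804, 599 and 656 CPM in WT 1, WT 2, TG 1 and TG 2, and was their gene of smallest p with lower values in males (-0.36 ± 0.16). Col4a4 was that with higher ones (0.10 ± 0.41) and led the difference between the pairs (1.57 ± 0.39, adjusted p of 0.121 by edgeR). Between TG and WT the extremes were Col4a6 (0.12 ± 0.51) and Col4a3 (-0.24 ± 0.22). No test set the 2 families against each other.

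Genes of collagen biosynthesis had sums that differed little between libraries, although 13 of the 29 tested were highest in WT 2, against 27.5% of all tested genes. The 30 listed genes hydroxylate, fold, export, trim and cross-link the chains, and 29 had enough counts to be tested. All 30 summed to 1321 CPM in WT 1, 1427 in WT 2, 1294 in TG 1 and 1433 in TG 2. Serpinh1, the chaperone specific to procollagen, was at 169, 199, 158 and 185 CPM, and P4hb, a subunit of prolyl 4-hydroxylase, at 288, 267, 255 and 292. By edgeR 0 were called in any of the 3 comparisons (0, 1 and 1 at an unadjusted p under 0.05).

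Between TG and WT 14 of these 29 had positive values (median -0.02), with the smallest p for Leprel1, a prolyl 3-hydroxylase (0.39 ± 0.37, but -0.04 without WT 2), and Plod2, a lysyl hydroxylase (-0.15 ± 0.13). Between males and females 22 of 29 were lower in males (median -0.12), led by the lysyl hydroxylase Plod1 (-0.42 ± 0.15), which was at 88.4 and 106 CPM in the males and 136 and 124 in the females. The procollagen protease gene Adamts14 was higher in males (0.86 ± 0.36). Between the pairs, Adamts3 (1.11 ± 0.37, adjusted p of 0.220 by edgeR) and the peptidyl-prolyl isomerase gene Ppib (-0.48 ± 0.23) had the smallest p in each direction, and the median of 0.10 was far below the 1.14 of the collagens.

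Fibril partners and receptors were tested for 21 of 23 genes. Of these 0 were called between TG and WT or between males and females by edgeR (0 in both at an unadjusted p under 0.05). The proteoglycan gene Bgn was at 164 and 141 CPM in the WT libraries and 203 and 185 in the TG libraries (0.34 ± 0.16), both TG values being higher, as for Col1a1. The integrin chain Itga10 had the smallest p with a negative value (-0.48 ± 0.55). Between males and females the proteoglycans Aspn (0.34 ± 0.14) and Lum (-0.27 ± 0.13) had the smallest p in each direction. The difference between the pairs was called for 1 gene, Lair1, an inhibitory collagen receptor of leukocytes, at 15.4 and 10.9 CPM in WT 1 and TG 2 and 1.28 and 1.92 in WT 2 and TG 1 (-6.09 ± 0.60, adjusted p of 0.0126 by edgeR, and 0.0914 without WT 1). Its level followed the leukocyte markers, and their part in it was not tested.

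Smooth muscle and pericyte markers summed to 2325, 1641, 2665 and 2357 CPM in WT 1, WT 2, TG 1 and TG 2, with WT 2 lowest. That sum was led by Rgs5, at 529 CPM in WT 2 and 1115 to 1263 in the others, and by Abcc9, whereas 5 of the 9 (Myh11, Tagln, Cnn1, Cspg4 and Pdgfrb) were highest in WT 2, as most collagens were. Their part in the collagen values was not tested. Endothelial markers summed to 954, 1174, 1087 and 1012 CPM in the same order. Of these 7 markers 4 were higher in both WT 2 and TG 1 than in the other libraries, against 22.9% of tested genes. Highest in WT 2 were 3, against 27.5%. The part of endothelium in the collagen values was not tested. Schwann cell markers summed to 88.5 to 103 CPM. Cartilage and bone markers summed to 5.41 to 9.53 CPM, with Bglap and Ibsp at 0 counts in all 4 libraries, and epidermal markers to 2.55 to 3.39 CPM, with Krt5, Krt14 and Krt1 at 0 counts in all 4. The cartilage matrix gene Comp was at 5.25 CPM in WT 2, the library in which Col11a2 was high, and 1.28 to 1.73 in the others. Sox9, the other tested cartilage and bone marker, did not follow it. It was at 3.28, 3.52, 5.69 and 4.65 CPM in WT 1, WT 2, TG 1 and TG 2. The part of cartilage or bone cells in the Col11a2 value was not tested.

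**Figure D5:**
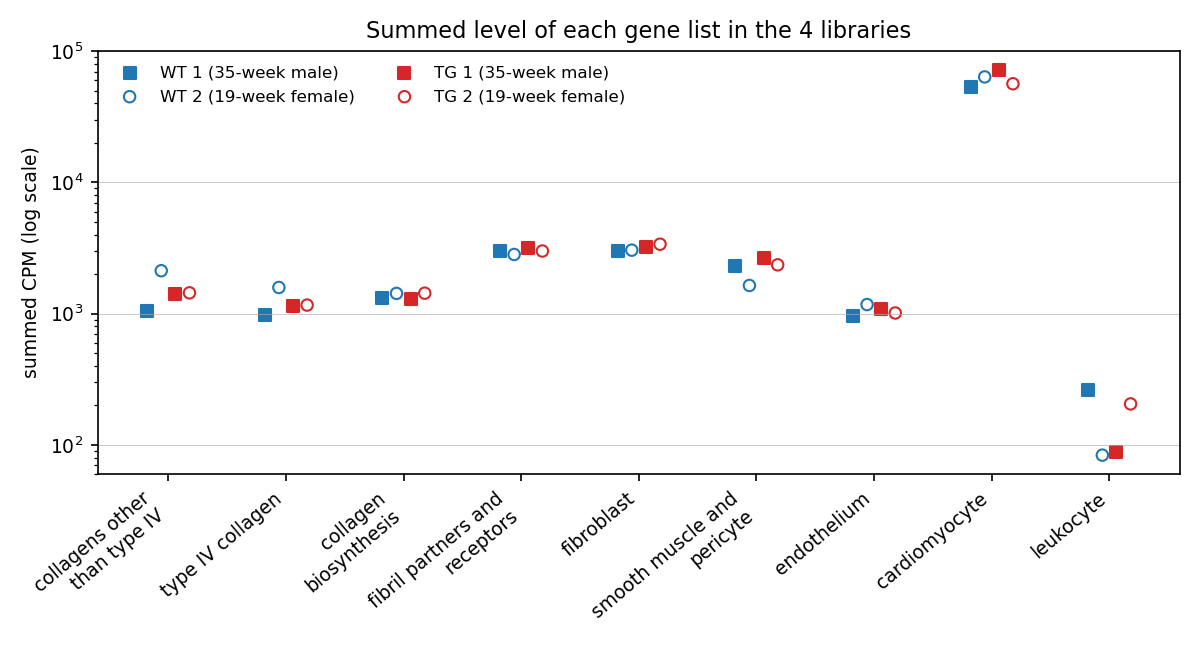
Summed CPM (log axis) of the 25 collagens, of the type IV collagens and of the lists of collagen partners and of the more abundant cell type markers in each library. WT 2 is highest for both collagen groups, whereas biosynthesis genes and fibroblast markers lie within 1294 to 1433 and 3013 to 3384 CPM and leukocyte markers split WT 1 and TG 2 from WT 2 and TG 1.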

How the data were processed

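Total RNA of the left ventricular free wall was made into libraries with a kit that marks strand, per the labels' protocols, 1 per mouse. The authors deposited raw read counts per Ensembl gene. Per the submitters' processing notes reads were handled with STAR 2.3.0 and HTSeq 0.6.1, among other tools, and the build was mm10. The sources used here name no annotation release. A deposited table of normalized values was not used.

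Counts were tested in R 4.3.3 with edgeR 4.0.16 (quasi-likelihood, TMM scaling, filterByExpr with a minimum count of 10, Benjamini-Hochberg adjustment over 14189 genes, threshold 0.05), without a block; the test was checked on simulated counts. DESeq2 1.42.0, limma-voom (limma 3.58.1), other scaling and filters, blocks, removal of a trend with gene length and leaving out each library were alternatives. All 25 members passed the filter. Lengths and positions came from GENCODE vM21. SE are those of fitted log2 fold changes. The p-values rest on the spread among these 4 mice, moderated over genes. Without a block, that spread includes the difference between males and females in the test of TG against WT. In the test of males against females it includes the difference between genotypes.

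The members and lists were chosen with earlier results of these data known. Named with fold changes were 12 abundant collagens, and in each comparison any called gene or otherwise the gene of smallest p in each direction, per list. The marker lists share Dcn, Lum and Dpt with the fibril partners.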

Additional observations from a re-analysis of the deposited data

Results flagged for a closer look

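Lair1, the collagen receptor of leukocytes, was called between the pairs by the test with the interaction as its only term. Its coefficient was -6.09 on the log2 scale, which equals the difference between the pairs only where genotype and pair add none of their own. The same test called 2.72% of all tested genes. The log2 fold change of Lair1 between TG and WT was -0.38 ± 1.26. The coefficient stayed between -6.71 and -5.54 whichever library was left out.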

How the results depend on the processing

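Of the alternatives run, none called a collagen between TG and WT. The number of all genes called there, 0, was 3 with DESeq2 and 0 to 8 with 1 library left out (8 without WT 1). Between males and females 4 became 34 with DESeq2, 7 without a filter, 0 with genotype as a block and 0 to 9 with 1 library left out (0 without WT 1, WT 2 or TG 1, 9 without TG 2). Between the pairs 386 became 703 with DESeq2, 908 without a filter and 44 to 366 with 1 library left out (44 without WT 1, 110 without TG 2). The 50 higher and 336 lower there became 218 and 485 with DESeq2 and 264 and 644 without a filter. Collagens called rose from 0 to 1 between males and females with DESeq2 and without a filter (Col14a1 in both), and between the pairs to 2 with DESeq2 and 2 without a filter (Col5a1 and Col15a1 in both) and 0 to 2 with 1 library left out (Col5a3 and Col11a2 without TG 1). With the length trend removed the medians of the members were -0.20, -0.51 and 0.93 in the 3 comparisons; for the second and the third this was chosen after seeing the data.

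With the replicate number as a replicate block 0 genes were called between TG and WT (61 at an unadjusted p under 0.05 by edgeR), which changed no call. The labels give same-numbered mice the same sex and age, but their deviations from the genotype means correlated at -0.45 over the tested genes. A crossed block (WT 1 with TG 2), chosen after seeing the data, called 0 genes (303 at an unadjusted p under 0.05 by edgeR).

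Between TG and WT, Col5a1 and Col15a1 turned sign to 0.018 and 0.0092 with limma-voom, 0.016 and 0.0081 with the replicate block and 0.015 and 0.0068 with the crossed block. Between the pairs Col8a1 turned to 0.00026 with limma-voom. With 1 library left out, values between TG and WT ran from -0.15 to 0.40 for Col1a2, -0.78 to 0.24 for Col3a1, -0.49 to 0.54 for Col5a1, -0.55 to 0.19 for Col5a2, -0.65 to 0.50 for Col6a1, -0.59 to 0.52 for Col6a2, -0.78 to 0.70 for Col6a3, -1.38 to 1.11 for Col14a1, -0.77 to 0.80 for Col15a1, -2.58 to 0.56 for Col11a2, -0.040 to 1.01 for Leprel1 and -0.43 to 1.00 for Col4a6. Between males and females they ran from -0.44 to 0.55 for Col1a1, -0.41 to 0.13 for Col1a2, -0.38 to 0.025 for Col18a1 and -0.33 to 0.73 for Col4a4. Between the pairs they ran from -0.34 to 1.61 for Col3a1, -0.11 to 1.20 for Col5a2, -0.31 to 0.31 for Col8a1, -2.42 to 2.57 for Col14a1 and -0.15 to 0.73 for Col18a1. The cause was not tested. Where leaving out a library leaves 1 sample in a group, that sample is assumed to vary like the other group. Depth limits Col11a2, Col13a1, Col17a1 and Col28a1, each with under 10 counts in at least 1 library.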
